A study of Mus musculus with 4 samples.

Results

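The genes described are 10 members of the Hippo pathway's transcriptional output, read in 4 libraries of cultured mouse alveolar type II cells. They are the coactivator genes Yap1 and Wwtr1 (which encodes TAZ), the DNA-binding partner genes Tead1 and Tead3, the inhibitory kinase genes Lats1 and Lats2, and the target genes Ccn1 (older name Cyr61), Ccn2 (older name Ctgf), Ankrd1 and Axl. They were chosen by name, and all 10 were found among the 28096 gene identifiers of each table. All 4 libraries carry the genotype label KRasEtv wt. Every genotype of the series' design text includes KRaswt/d12 and RosaCreERT2, a Cre recombinase that 4-hydroxytamoxifen switches on and that is placed at the broadly active Rosa locus; which of its 3 genotypes the label means is not stated, and the others were not analysed here. Type II cells were sorted from lung as EpCAM-positive cells without CD24, CD45, CD31 and Pdpn. They were kept in matrigel in BEGM with 100 nM of that drug for 4 days and without it for 1 day before RNA was taken. No untreated, uncultured or Cre-negative cells were analysed, so the levels below have no control and the libraries are replicates of 1 condition. The labels give no age, sex, batch or replicate number and do not tie a library to a mouse, although the design text gives 4 mice per genotype. Libraries 1 to 4 are therefore names in accession order, and p-values measure only the spread between libraries, which may be technical.

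YAP and TAZ are closely related proteins that bind no DNA themselves; in the nucleus they join TEAD factors on the DNA and switch on genes for matrix, cytoskeleton and growth. The kinases MST1 and MST2, with their partners, activate LATS1 and LATS2, and these phosphorylate YAP and TAZ so that they are held in the cytoplasm by 14-3-3 proteins or degraded. In the lung alveolus, YAP and TAZ are known for their part in the change of type II cells into type I cells after injury. Regulation acts mainly on the proteins, so the RNA of Yap1 or Wwtr1 is not a measure of how much protein is in the nucleus.

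TEAD factors recognise the hexamer GGAATG, read as CATTCC on the other strand, and the promoters of the target genes are shown because this hexamer links the targets to the factors. RefSeq sequence of the build GRCm38.p6 was searched over the 250 bases before each annotated start, on both strands. The counts themselves were made on mm9, per the submitters' processing notes, and no coordinate was carried between the builds. A window was held for 8 of the 10 genes; none was at hand for Tead1 and Ccn2. Capitals mark the hexamer, and the strand printed is the strand of the gene.
Ccn1 promoter, chr3:145649986-145650235, minus strand: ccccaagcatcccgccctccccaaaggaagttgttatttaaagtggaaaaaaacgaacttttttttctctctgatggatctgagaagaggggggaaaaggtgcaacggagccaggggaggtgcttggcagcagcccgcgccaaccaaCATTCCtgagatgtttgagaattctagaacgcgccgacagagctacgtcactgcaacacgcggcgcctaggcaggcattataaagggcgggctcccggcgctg
Ankrd1 promoter, chr19:36119845-36120094, minus strand: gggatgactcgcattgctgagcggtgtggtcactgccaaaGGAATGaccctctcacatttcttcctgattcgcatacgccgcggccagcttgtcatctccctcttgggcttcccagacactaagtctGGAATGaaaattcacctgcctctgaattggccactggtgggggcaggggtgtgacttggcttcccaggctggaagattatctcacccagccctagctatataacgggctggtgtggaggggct
Axl promoter, chr7:25788734-25788983, minus strand: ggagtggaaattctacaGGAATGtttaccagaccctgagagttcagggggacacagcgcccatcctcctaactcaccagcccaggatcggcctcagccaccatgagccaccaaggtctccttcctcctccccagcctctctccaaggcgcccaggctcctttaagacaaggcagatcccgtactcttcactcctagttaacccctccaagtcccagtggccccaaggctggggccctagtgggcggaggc
The single copy in the Ccn1 promoter lies 103 to 98 bases before the start, and the TATA box letters TATAAA lie 25 to 20 bases before it. Ankrd1 has 2 copies, at 210 to 205 and at 123 to 118 bases before its start. The Axl copy lies far from its start, at 233 to 228 bases.

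The hexamer was also found before the genes of the coactivators and of Tead3. These sites are shown with the 10 bases on each side, again with the hexamer in capitals.
Yap1 site: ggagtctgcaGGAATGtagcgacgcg
Wwtr1 site: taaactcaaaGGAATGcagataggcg
Tead3 site: cgacgagcgaGGAATGgggtgcgcgg
Counted from the start that lies farthest upstream, these copies are 141 to 136 bases before Yap1, 136 to 131 before Wwtr1 and 182 to 177 before Tead3. Before another annotated start of Tead3 there are 2 more copies, at 123 to 118 and at 114 to 109 bases. In all, 6 of 8 genes had the hexamer in at least 1 window, against 14.4% of 27025 genes with a RefSeq window. By window the hexamer was in 8 of 12, some of which overlap, against 12.6% of 32851. The Lats1 and Lats2 windows held none. The AP-1 letters TGANTCA, found before 7.82% of genes, and the CArG box of serum response factor, found before 1.62%, were in none of the windows of these 8 genes. A match of letters is a description and not a bound site, and sites farther away were not searched.

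Library totals ranged from 12133251 to 13591876 uniquely aligned reads, of which the mitochondrial ribosomal RNAs took 19.6% to 38.9%. Levels are the authors' size-factor-adjusted RPKM (nRPKM); they correct for depth and for the length of the gene, so that genes can be compared. The labelled cell type was checked by its markers: all 11 type II markers had a mean of at least 10 nRPKM, led by the surfactant genes Sftpc (10006 ± 3649) and Sftpb (3065 ± 1133; SD, n = 4). That level was also reached by 10 of 12 type I markers and by 9 of 10 markers of cells between the 2 states. It therefore does not single out type II cells. None of 7 endothelial markers reached 1 nRPKM, and the highest were Pecam1 (0.112 ± 0.0625) and Kdr (0.0910 ± 0.0842; SD, n = 4). Markers of some other cells were above 10 nRPKM, among them the club cell gene Scgb1a1 (350 ± 358), the basal cell gene Krt5 (34.0 ± 27.3), the leukocyte gene Cd68 (21.7 ± 10.98) and the mesothelial gene Msln (10.9 ± 5.34; SD, n = 4). Cd68 and Msln were each the only gene of their list at that level. Of 11 leukocyte markers 7 reached 1 nRPKM, but Ptprc, the gene of CD45, had 0.422 ± 0.193 (SD, n = 4). Of 5 mesothelial markers only Msln reached 1 nRPKM. Library 1 had the lowest level of each of the 11 type II markers, against 26.8% of all genes with a mean of at least 1 nRPKM.

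Levels did not follow the roles of the genes (plot of levels per library). Ccn1 was highest at 50.6 ± 7.90 nRPKM, above 98.0% of all genes in the table. Tead1 (19.1 ± 4.15), Wwtr1 (18.1 ± 1.42), Lats1 (17.5 ± 1.64) and Yap1 (14.3 ± 3.68) formed a group of similar level. Ccn2 (6.50 ± 2.41) and Lats2 (5.81 ± 1.17) followed, then Axl (2.67 ± 1.86), Tead3 (1.40 ± 0.390) and Ankrd1 (0.604 ± 0.145; SD, n = 4 throughout). Of the 10 genes, 9 had a mean of at least 1 nRPKM, a level reached by 42.4% of the 28096 identifiers.

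Of the 9 differences between neighbours in this order, 5 were larger than their SD over libraries and 4 had the same sign in all 4 libraries. The order was taken from the means of these same libraries, so the differences lean above 0 by construction. The p-values below are therefore not a test of the order. Those 4 were Ccn1 over Tead1 (1.37 ± 0.38), Yap1 over Ccn2 (1.05 ± 0.70), Lats2 over Axl (1.00 ± 0.81) and Tead3 over Ankrd1 (0.57 ± 0.33), as differences of log2(nRPKM + 1). Each had p = 0.13 in a two-sided exact sign-flip permutation test and an adjusted p of 0.281 over the 9 pairs; 0.13 is the smallest p that 4 libraries allow. Lats1 lay above Yap1 by 0.30 ± 0.24 in 3 of 4 libraries (exact permutation p = 0.25, adjusted p = 0.375). Differences within their spread were those of Tead1 and Wwtr1 (0.06 ± 0.27), Wwtr1 and Lats1 (0.04 ± 0.17), Ccn2 and Lats2 (0.11 ± 0.54) and Axl and Tead3 (0.50 ± 0.79).

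**Figure D1:**
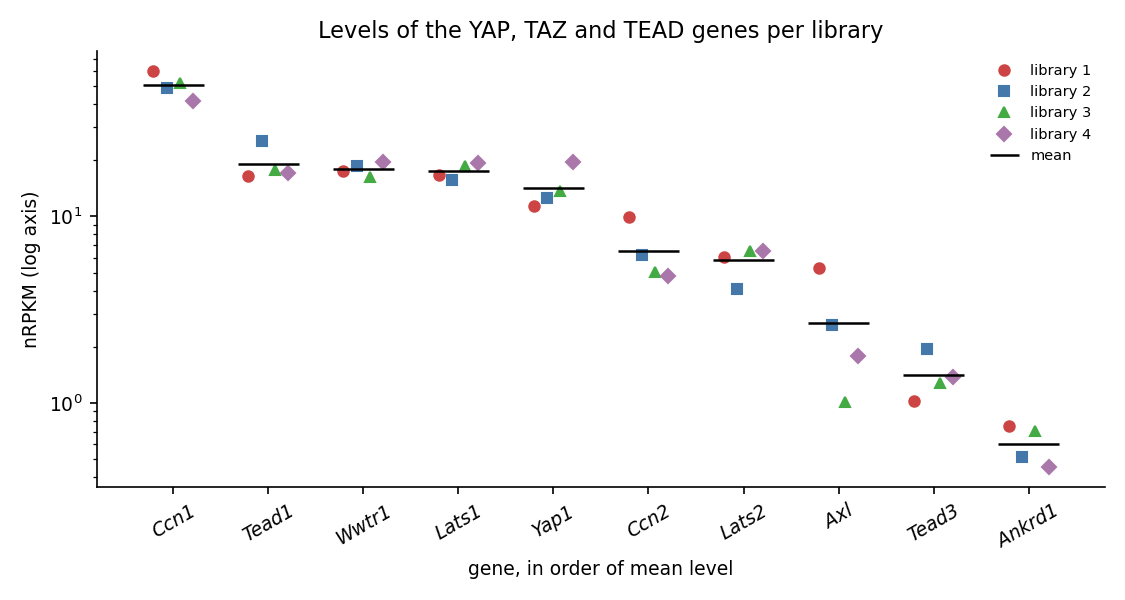
Level of each gene in nRPKM on a log axis, with 1 symbol per library and a black line at the mean of the 4 libraries; genes are in order of mean level. Ccn1 lies above the other genes in every library, the points of Tead1, Wwtr1, Lats1 and Yap1 overlap, and Axl has the widest range.

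Among the coactivators, Wwtr1 was the steadier and slightly higher transcript. Across libraries 1 to 4, Wwtr1 (Entrez 97064) had 17.6, 18.6, 16.3 and 19.7 nRPKM on 1534 to 1718 reads. Yap1 (Entrez 22601) had 11.3, 12.5, 13.6 and 19.6 nRPKM in the same order, on 928 to 1332 reads. Yap1 was lower than Wwtr1 in 3 libraries and nearly equal to it in library 4, where its level was 0.996 times that of Wwtr1. The log2 difference, Yap1 minus Wwtr1, was -0.35 ± 0.27, below 0 in 4 of 4 libraries (exact permutation over sign flips, two-sided, p = 0.13 and adjusted p = 0.13 over 4 pairs, the smallest possible). Wwtr1 made up 56.3 ± 4.98% of the summed level of the pair, from 50.1% in library 4 to 60.9% in library 1 (SD, n = 4). That sum was 39.3 nRPKM in library 4 and 28.9 to 31.1 in the others.

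Tead1, which encodes a TEAD factor of many tissues, was the predominant TEAD transcript. Its levels were 16.4, 25.3, 17.7 and 17.0 nRPKM in libraries 1 to 4 (Entrez 21676, 2762 to 4471 reads). Library 2 stood above the other 3, which lay close together. Tead3 (Entrez 21678) had 1.03, 1.95, 1.27 and 1.37 nRPKM from only 63, 104, 80 and 67 reads. Library 2 again had the highest level and library 1 the lowest. The 95% exact Poisson interval of the count in library 1, 48.4 to 80.6 reads, lies below that of library 2, 85.0 to 126. That of library 3, 63.4 to 99.6 reads, overlaps that of library 2. These are reads not adjusted for library size, and library 3 is the larger of those libraries. The overlap in reads therefore does not show that their levels overlap. Tead1 exceeded Tead3 by 3.06 ± 0.10 on the log2 scale and by 13.8 ± 1.56 times, in 4 of 4 libraries (exact permutation p = 0.13, adjusted p = 0.13, the smallest possible). The ratio was from 12.4 to 16.0 in single libraries, so the pair differed by nearly the same amount throughout.

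The remaining TEAD genes were also low: Tead4 had 2.41 ± 0.584 nRPKM and Tead2 had 1.42 ± 0.279 (SD, n = 4). Tead1 therefore made up 78.1 ± 3.55% of the summed TEAD level, with 74.6% in library 1, 82.5% in library 2, 76.0% in library 3 and 79.5% in library 4. The VGLL proteins bind TEAD factors in place of YAP and TAZ. Vgll4, which encodes the member known as a repressor of this pathway, had 4.56 ± 1.46 nRPKM. Vgll3 had 0.178 ± 0.13 and Vgll2 had 0.0291 ± 0.0395 on 0 to 2 reads per library. No read was counted for Vgll1, so its expression was below the detection limit of 3 counts per library.

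Of the LATS kinase genes, Lats1 (Entrez 16798, 2008 to 2804 reads) had 16.7, 15.7, 18.6 and 19.2 nRPKM in libraries 1 to 4. Lats2 (Entrez 50523) had 6.08, 4.09, 6.52 and 6.54 nRPKM, from 403 to 758 reads. Library 2 had the lowest level of both and library 4 the highest, and their ranges did not overlap. Lats1 was 3.09 ± 0.502 times as high as Lats2, a log2 difference of 1.46 ± 0.17 with the same sign in 4 of 4 libraries (exact permutation p = 0.13, adjusted p = 0.13, the smallest possible). Lats2 is itself a target of YAP and TAZ, which makes it part of a feedback loop. Of the 50-base words of its transcript, 56.5% also occur in another annotated gene, Gm49361, which leaves its level uncertain. Whether the authors' annotation held that gene is not known. The position of the shared words in the genome was not compared, so a loss of uniquely aligned reads was not shown. The share of such words was 8.60% for Ccn2 (with Gm15270), 1.65% for Yap1 and under 0.37% for the other members.

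The target genes differed widely in level. Ccn1, which encodes a secreted matrix protein that binds integrins, had 60.6, 48.6, 51.8 and 41.5 nRPKM in libraries 1 to 4 (Entrez 16007, 1372 to 2504 reads). Ccn2, of the same family and known for its part in fibrosis, had 9.98, 6.23, 5.01 and 4.77 nRPKM (Entrez 14219, 187 to 489 reads). Library 1 had the highest level of both and library 4 the lowest, and every Ccn1 value lay above every Ccn2 value. Ccn1 was 8.22 ± 1.78 times as high as Ccn2, a log2 difference of 2.82 ± 0.27 in 4 of 4 libraries (exact permutation p = 0.13, adjusted p = 0.13, the smallest possible). Within the family of 6 CCN genes, Ccn1 made up 88.0 ± 2.42% of the summed level. The others lay below 1 nRPKM: Ccn4 had 0.383 ± 0.264 nRPKM, Ccn6 0.0856 ± 0.0816, Ccn3 0.0536 ± 0.107 and Ccn5 0.00691 ± 0.0138 (SD, n = 4), with at most 9 reads in any library for the last 3.

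Ankrd1, which encodes an ankyrin repeat protein best known from stretched muscle and is a common reporter of YAP activity, was barely expressed. It had 0.750, 0.511, 0.703 and 0.452 nRPKM from 27, 16, 26 and 13 reads (Entrez 107765). The 95% exact Poisson intervals were 17.8 to 39.3 reads in library 1 and 6.92 to 22.2 in library 4, and they overlap. These are reads not adjusted for library size, and an overlap does not show that levels were equal. With library size taken into account, the variance of the counts was 1.11 times that of sampling. The spread between libraries was thus close to counting error. All 4 levels were above 0.104 nRPKM, the highest level that a count of 0 would allow in a library. PCR copies were not marked, so these intervals and limits hold only the error of counting reads.

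Axl, which encodes a receptor tyrosine kinase of the TAM family, had the widest range. Its levels were 5.28, 2.63, 1.01 and 1.79 nRPKM in libraries 1 to 4 from 547, 237, 107 and 148 reads (Entrez 26362). The level in library 1 was 5.25 times that in library 3, and the Poisson intervals of those counts, 502 to 595 and 87.7 to 129 reads, lie far apart. Without library 1 the mean of Axl was 1.81 nRPKM, against 2.67 with all 4. Gas6, the gene of the ligand of Axl, was higher than the receptor at 15.1 ± 3.70 nRPKM and was lowest in library 1 (10.1). The related receptor gene Tyro3 had 1.98 ± 0.298 and the ligand gene Pros1 had 1.50 ± 0.506 nRPKM (SD, n = 4). Mertk was not analysed here.

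Members of the same role peaked in the same library (plot of deviations by role). Yap1 and Wwtr1 were both highest in library 4. Tead1 and Tead3 peaked in library 2 and were lowest in library 1, whereas Lats1 and Lats2 were lowest in library 2 and peaked in library 4. The TEAD genes outside the members peaked elsewhere, Tead2 in library 3 (1.78 nRPKM) and Tead4 in library 1 (3.19). All 4 target genes were highest in library 1, and none of the other 6 members was; for Ankrd1 this lies within counting error. With libraries scaled by their totals without mitochondrial ribosomal RNA, the targets, Tead1, Tead3, Lats1 and Yap1 kept these peaks, but Lats2 was highest in library 1, Wwtr1 was highest in library 2 and Tead1 was lowest in library 4. That scaling raises library 1 the most, so the targets could not lose their peak there. Under it 31.7% of all genes were highest in library 1. Over all 11904 genes with a mean of at least 1 nRPKM, 22.5% were highest in library 1, 25.4% in library 2, 24.5% in library 3 and 27.6% in library 4. The shares of genes lowest in each library were 26.8%, 26.6%, 18.4% and 28.1% in the same order. For Yap1, library 1 held the lowest level. With library 1 set aside, 2 of the 4 targets were highest in library 2 (33.8% of all genes) and 2 in library 3 (32.7%), and none in library 4 (33.4%). These are descriptions of 4 libraries, with no test.

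**Figure D2:**
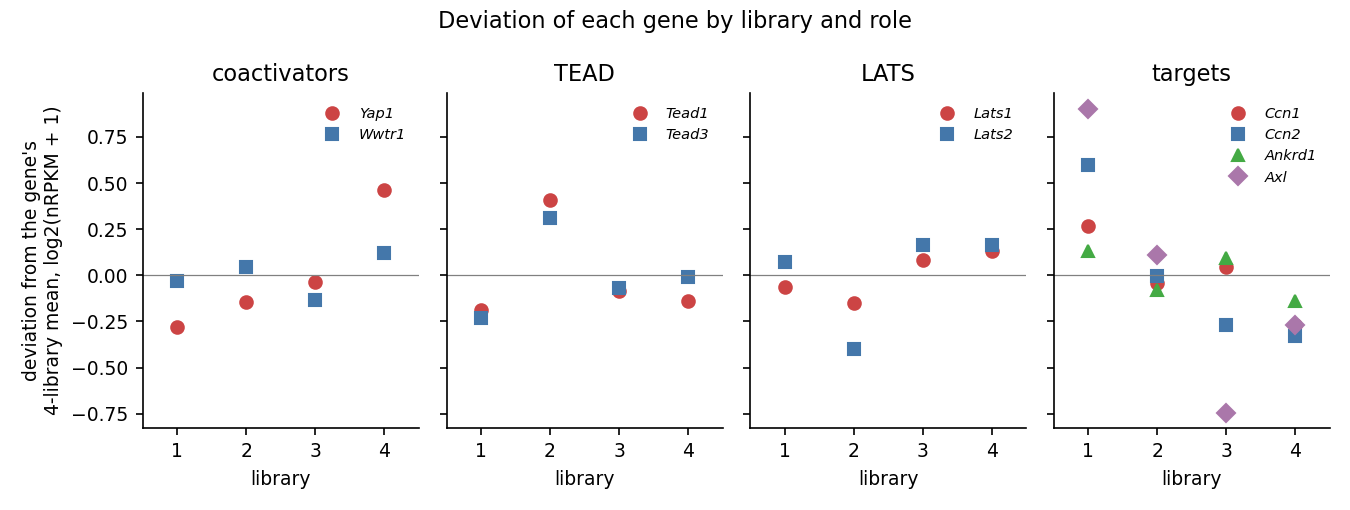
Deviation of each gene in each library from its own mean over the 4 libraries, as log2(nRPKM + 1), with 1 panel per role and 1 symbol per gene. The 4 targets lie above 0 in library 1 (0.13 for Ankrd1 to 0.90 for Axl), the TEAD genes lie above 0 in library 2 (0.41 and 0.31), and the LATS genes lie below 0 there (-0.15 and -0.40).

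The spread between libraries lay above counting error for 9 of the genes and close to it for Ankrd1 (plot of spread against counting error). The coefficient of variation (SD over mean) of nRPKM was 69.5% for Axl, 37.1% for Ccn2, 27.8% for Tead3 and 25.8% for Yap1. It was 24.0% for Ankrd1, 21.7% for Tead1, 20.1% for Lats2 and 15.6% for Ccn1. The steadiest were Lats1 (9.37%) and Wwtr1 (7.89%). Counting alone gives 22.2% for Ankrd1, 11.3% for Tead3, 6.24% for Axl, 5.82% for Ccn2 and 1.68% for Tead1, the gene with the most reads (14266 over the 4 libraries). The variance of the Ankrd1 counts was 1.11 times that of sampling, against 131 times for Axl and 163 times for Tead1. Such ratios grow with depth, and their median over 14268 genes with at least 40 reads was 8.52.

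Whether any gene varied more than genes of its level was tested with the edgeR quasi-likelihood dispersion across 13156 genes. None of the 10 genes was called at an adjusted p under 0.05, and 0.0152% of all genes tested were, the overlapping pair Xist and Tsix. The labels give no sex, and whether it differed between the libraries was not tested. Of the 10 genes, Axl came nearest (unadjusted p = 0.00263, adjusted p = 0.529, edgeR), followed by Ccn2 (unadjusted p = 0.0921, adjusted p = 0.997, same edgeR test). Axl was the single member with an unadjusted p under 0.05, against 675 of the 13156 genes. DESeq2, which called 0.471% of the same genes dispersion outliers, named none of the 10. The absence of a call does not show that levels were equal.

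**Figure D3:**
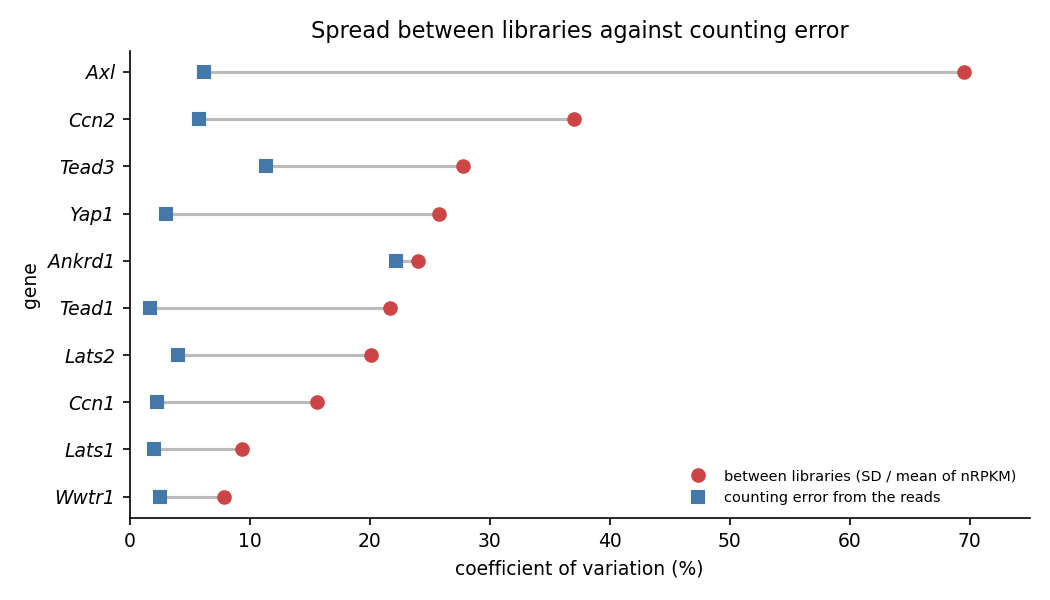
Coefficient of variation of nRPKM over 4 libraries (red circles) and the value that counting error of the reads alone gives (blue squares), in percent, for each gene. The symbols nearly meet for Ankrd1 (24.0% and 22.2%) and lie farthest apart for Axl (69.5% and 6.24%).

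The wider pathway was read from lists of other Hippo genes. All 6 genes of the core kinase cassette were at 1 nRPKM or more, with a median of 8.62, against a median of 0.345 over all 28096 identifiers. The gene of the LATS cofactor Mob1b had 21.5 ± 2.38 nRPKM and that of its relative Mob1a had 5.71 ± 1.06. The MST kinase genes Stk4 and Stk3 had 11.1 ± 0.516 and 8.16 ± 0.922, the scaffold gene Sav1 had 9.08 ± 2.11, and Nf2, which encodes the membrane-linked activator merlin, had 6.50 ± 0.788 (SD, n = 4). Sav1, Mob1a, Mob1b and Stk3, 4 of the 6, were lowest in library 3, against 18.4% of all genes.

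Of 23 upstream regulators, 20 had a mean of at least 1 nRPKM, with a list median of 7.06. The highest were Wwc1 (26.9 ± 7.54), which encodes the scaffold KIBRA, the giant cadherin gene Fat1 (22.6 ± 5.63), the kinase gene Taok3 (22.2 ± 6.81) and the polarity gene Mpp5 (20.9 ± 5.73). The lowest was Dchs1 (0.0307 ± 0.0161), which encodes a partner of FAT4. Wwc1 and Taok3 were lowest in library 1. All 10 genes of YAP and TAZ retention and turnover were at 1 or more (median 22.8): the 14-3-3 genes Ywhae (323 ± 27.2), Ywhaz (245 ± 16.7), Ywhab (108 ± 13.4) and Ywhag (42.7 ± 9.92) led, and Btrc (1.25 ± 0.0906), of the ubiquitin ligase that degrades both coactivators, was lowest (SD, n = 4). None of the genes of these lists that were tested was called variable by edgeR; Fat4 and Dchs1 had too few reads to be tested.

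A signature of 22 YAP and TAZ targets drawn from cancer work, which holds Lats2 and the 4 target genes, had 19 genes at a mean of at least 1 nRPKM and a median of 3.02. The tissue factor gene F3 (61.5 ± 32.2) was highest, before Ccn1, the ectonucleotidase gene Nt5e (39.3 ± 13.0) and the membrane repair gene Myof (24.8 ± 3.79), and Fjx1 (0.250 ± 0.110) was lowest (SD, n = 4). F3 had 109, 54.0, 41.8 and 41.1 nRPKM in libraries 1 to 4 and Nt5e had 58.5, 36.2, 31.7 and 30.8. Of the 19, 11 were highest in library 1, 3 in library 2, 0 in library 3 and 5 in library 4. Among the 15 of them that are not members, 8 were highest in library 1, against 22.5% of all genes. Lats2 (under the authors' scaling), Dock5, Asap1, Crim1 and Rbms3 were highest in library 4, so the signature did not move as a block.

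**Figure D4:**
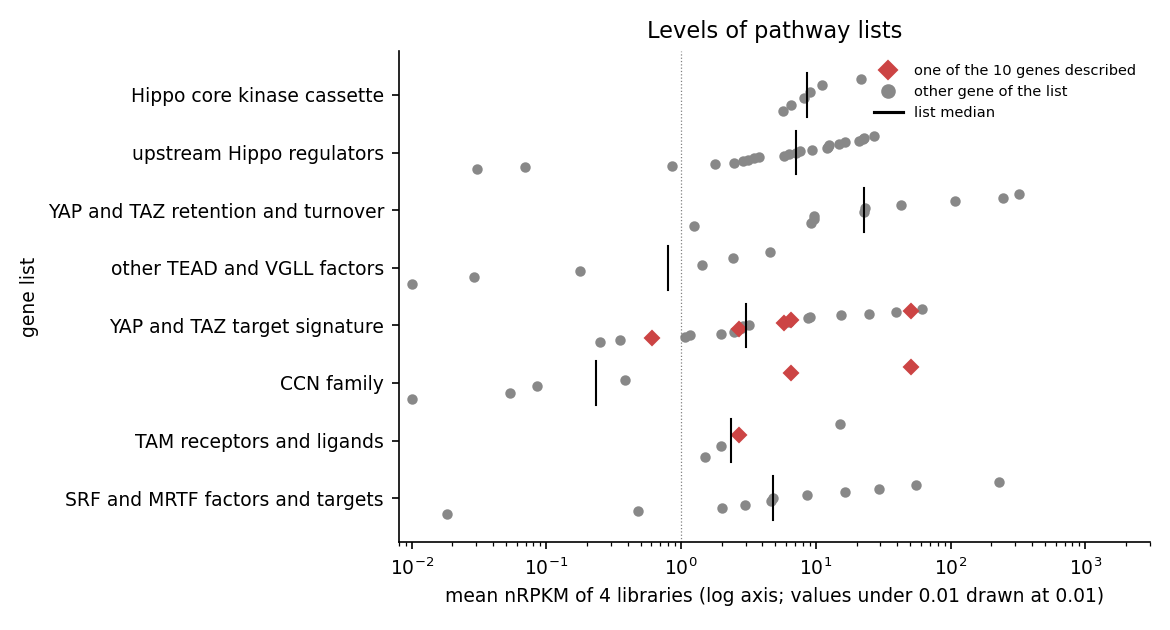
Mean nRPKM over 4 libraries of every gene in 8 pathway lists on a log axis; red diamonds are genes described here, grey circles other genes, black bars list medians, and the dotted line marks 1 nRPKM. All genes of the core cassette and of retention and turnover lie right of the dotted line, and 4 of 6 CCN genes lie left of it.

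Ccn1, Ccn2 and Ankrd1 also respond to serum response factor and its MRTF partners, which sense actin. The factor genes had 4.65 ± 1.27 (Srf), 4.79 ± 1.17 (Mrtfa) and 8.51 ± 1.27 nRPKM (Mrtfb). Of the 11 factors and targets, 9 had at least 1 nRPKM, led by Tpm1 (228 ± 32.2), Cnn2 (55.4 ± 9.05), Flna (29.3 ± 4.86) and Vcl (16.4 ± 2.17), while the smooth muscle gene Cnn1 was lowest at 0.0184 ± 0.0236 (SD, n = 4). Their summed level was 367, 289.9, 375 and 377 nRPKM in libraries 1 to 4, of which Tpm1 alone made up 241, 179, 243 and 247. By gene, 2 of the 9 were highest in library 1, 4 in library 2, 1 in library 3 and 2 in library 4. The shares of all genes were 22.5%, 25.4%, 24.5% and 27.6% in the same order. Immediate early genes summed to 97.6, 77.9, 75.4 and 55.9 nRPKM and were led by Zfp36 (21.3 ± 5.05), Dusp1 (17.0 ± 9.24), Egr1 (13.0 ± 3.67) and Jun (8.18 ± 2.25), with Fosb lowest (0.296 ± 0.181; SD, n = 4). Of the 8 immediate early genes at 1 nRPKM or more, 4 were highest in library 1 (22.5% of all genes). Of the same 8, 5 were lowest in library 4 (28.1% of all genes). These are the libraries in which Ccn1 was highest and lowest.

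Summed markers of several other cell types were highest in library 1, as the targets were (plot of targets and marker lists). Of the targets, only Axl was lowest in library 3, and Ccn1, Ccn2 and Ankrd1 were lowest in library 4. In a bulk sample, fewer cells of a type and less RNA per cell cannot be told apart. Mesenchymal markers summed to 28.8, 17.5, 5.21 and 12.4 nRPKM in libraries 1 to 4, led by Dcn (5.52 ± 5.92) and Col1a1 (4.59 ± 2.19; SD, n = 4); 4 of 9 had a mean of at least 1, and no read was counted for Lum in library 3 or for Tcf21 in libraries 2 and 3. This is the order of Axl, with library 1 highest and library 3 lowest. Basal cell markers had the same order at 149.5, 102.5, 20.9 and 48.4 nRPKM, led by Krt5 (34.0 ± 27.3) and Krt6a (23.9 ± 16.1), and 4 of 6 had at least 1. Leukocyte markers summed to 78.1, 69.1, 29.0 and 22.4 nRPKM with 7 of 11 at 1 or more, led by Cd68 (21.7 ± 10.98) and Fcer1g (8.64 ± 5.94); Cd3e and Cd79a had no read in libraries 2 and 3. Mesothelial markers summed to 19.3, 9.52, 7.22 and 8.80 nRPKM, nearly all from Msln, with Gpm6a next at 0.119 ± 0.0828 and no read for Upk3b. Endothelial markers summed to 0.835, 0.218, 0.195 and 0.590 nRPKM, with Cldn5 at 0 in libraries 1 and 2, Emcn in library 2 and Tie1 in libraries 2 to 4. The part of other cells in the levels of Axl and the other targets was not tested.

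Markers of the epithelium's own states differed in the same libraries. Transitional markers, of cells between the type II and type I states, summed to 1640, 1137, 1167 and 884 nRPKM. They were led by Clu (378 ± 81.9), itself highest in library 2, and Krt19 (240 ± 75.1). Of these markers, 8 of 10 were highest in library 1, against 22.5% of all genes. The sums of type I markers were 964, 809, 964 and 735 nRPKM, led by Gprc5a (223 ± 50.6) and Aqp5 (185 ± 15.6; SD, n = 4), with 10 of 12 at 10 nRPKM or more. Type II markers summed to 9277 nRPKM in library 1 and to 15382, 20691 and 15663 in libraries 2 to 4. Club cell markers, led by Scgb1a1 (350 ± 358) and Cyp2f2 (32.4 ± 15.7), peaked in another library, at 265, 955, 116 and 227 nRPKM in libraries 1 to 4; library 2 is also where Tead1 and Tead3 were highest. Whether these states or cells account for any of the differences was not tested.

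**Figure D5:**
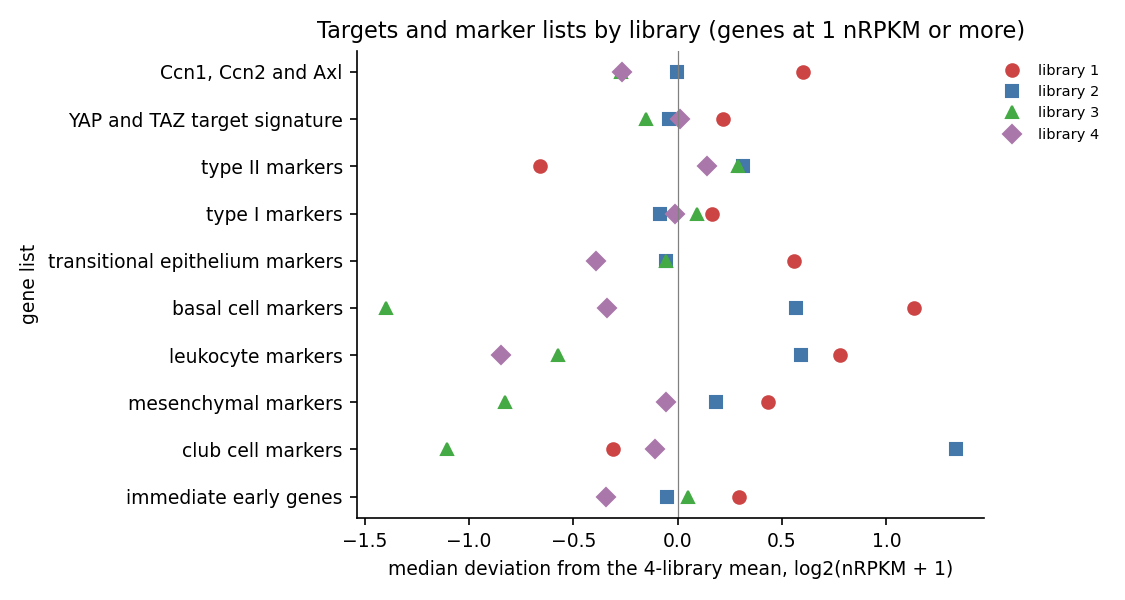
Median deviation from each gene's mean over 4 libraries, as log2(nRPKM + 1), for the targets Ccn1, Ccn2 and Axl, the target signature and lists of cell type or state markers and immediate early genes, with 1 symbol per library; genes under 1 nRPKM are left out. Library 1 is highest for the targets (0.60), the transitional markers (0.56) and the basal markers (1.13), and lowest for the type II markers (-0.66).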

How the data were processed

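Polyadenylated RNA of 4 libraries was sequenced. For every library the authors deposited a count and an RPKM of each of 28096 Entrez identifiers. Counts are uniquely aligned reads per gene model and RPKM values are adjusted by size factors (nRPKM), per the file headers. GSNAP and mm9 are named per the submitters' processing notes; the annotation, the versions, any filters and whether strand was used are not stated there. Symbols were matched by Entrez identifier for 25035 rows (RefSeq, GRCm38.p6, names only); rows without a symbol took 2.48% to 3.71% of counts.

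The members and the 22 gene lists were chosen with earlier results of these data known. Named were all members, all genes of 4 short lists (core cassette, TEAD and VGLL factors, CCN, TAM), the 4 highest and the lowest gene of the other pathway lists, and the 2 highest markers and any at 0 reads of each marker list. Others, such as genes named for their highest library and Ptprc, Lum, Cd3e, Cd79a and Cldn5, were chosen after their values were seen.

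Logarithms are log2(nRPKM + 1), which understates differences of low genes. Differences of gene pairs were flipped in sign over libraries in an exact two-sided permutation test (scipy 1.17.1), with Benjamini-Hochberg adjustment. Spread was tested on counts with edgeR 4.0.16 in R 4.3.3 (TMM, filterByExpr, intercept only, quasi-dispersion over the trended prior against the F distribution, adjusted over all genes tested at 0.05); the code was tested on simulated data. DESeq2 1.42.0 dispersion outliers were an alternative. Shared sequence was the percent of 50-base words of the longest protein-coding transcript found in another gene, on either strand (GENCODE, GRCm38). No library repeats another: the counts of any pair of them departed from sampling noise by 39.0 to 113 times, as chi-square per degree of freedom.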

Additional observations from a re-analysis of the deposited data

Results flagged for a closer look

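In 32 groups of 4 library values (10 genes, 4 pair differences and 18 lists) a library standing apart was looked for by Dixon's gap test, which flags about 1 group in 20 by chance; 3 were found. Tead1 stood apart in library 2, with 25.3 nRPKM against 16.4 to 17.7 in the others. The summed level of the YAP and TAZ target signature stood apart in library 1, with 349 nRPKM against 211 to 228, and F3 and Nt5e made up 109 and 58.5 nRPKM of that sum. The summed level of the SRF and MRTF list stood apart on the low side in library 2, with 289.9 nRPKM against 367 to 377; Tpm1, its highest gene, had 179 nRPKM there.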

How the results depend on the processing

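Of 146 alternative values, 136 kept their direction and their side of the threshold or stayed within the stated spread. These include all 20 for the paralogue pairs and all 60 for the gene levels (TMM scaling, totals without mitochondrial ribosomal RNA, and each library left out). Those for the paralogue pairs were fixed in advance, because each pair had the same sign in all 4 libraries. The alternatives of the 4 neighbour pairs with the same sign in every library were fixed for the same reason. Leaving out a library also cannot move a mean of 4 values by its SD. The changes of scaling could not fail for the gene levels either. Their library factors were 0.950 to 1.057, and the smallest coefficient of variation of a member was 7.89% (Wwtr1). No mean could therefore move by its SD. The neighbour order turned in 4 cases where differences lay within their spread. With a library left out, Ccn2 minus Lats2 ranged from -0.067 (without library 1; -0.025 without library 2) to 0.27, Tead1 minus Wwtr1 from -0.061 (without library 2) to 0.15, and Wwtr1 minus Lats1 from -0.023 (without library 2) to 0.11. Axl minus Tead3 kept its sign but was 0.12 without library 1, against 0.50 with all 4. The edgeR count of variable genes, 2, was 66 with no filter on low counts, 62 as DESeq2 outliers and 0 to 6 with a library left out. Of the members, 0 were called under each. In edgeR the adjusted p of Axl was 0.0623 with no filter, against 0.529 with it. With a library left out, the smallest adjusted p of a member in edgeR was 0.542 to 0.989. The finding that all 4 targets were highest in library 1, whose alternatives were added after seeing the data, held under both other scalings. This check could not fail, because both scalings raise library 1 the most (factors of 1.009 and 1.057). For the same reason the count of signature genes highest in library 1 could not fall. Of 19 signature genes, 11 were highest there with TMM (24.0% of all genes) and 12 without mitochondrial ribosomal RNA (31.7% of all genes). The changed peaks of Lats2 and Wwtr1 stand in the results. Without library 1, no other library held more than 2 of the 4. No paired analysis was possible because there is a single group. With 4 libraries no sign-flip test can pass 0.05, and the low read numbers of Ankrd1 and Tead3 limit what can be seen of them.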
